A study of Mus musculus with 8 samples.

Results

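The genes described here are 10 genes of autophagy and the lysosome: Ulk1, Becn1, Atg5, Atg7, Map1lc3a, Map1lc3b, Gabarapl1, Sqstm1, Tfeb and Lamp1. They were listed by symbol, with no rule on measured values, and matched to the Ensembl identifiers of the count files. All 10 were found among 55416 identifiers, and all 10 passed the low-count filter that left 18560 genes for testing.

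Autophagy wraps cytoplasm, damaged organelles or bacteria in a membrane, the autophagosome, which fuses with lysosomes, where acid hydrolases degrade the cargo. A kinase complex around ULK1 starts the process, a lipid kinase complex around Beclin 1 marks the membrane, and conjugation enzymes attach small ATG8 proteins to the growing membrane, where cargo receptors bind them. In the lung, alveolar macrophages are rich in lysosomes, and the surfactant stores of type II epithelial cells are organelles related to lysosomes.

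RNA from lung tissue of C57BL/6 mice was sequenced 24 h after endotoxin shock was induced, to ask how lipopolysaccharide (LPS) alters lung transcripts and how an inhibitor of protein arginine deiminases (PADs) alters that response. The methods describe C57BL/6J females aged 6 to 8 weeks. The control group (n = 3, mice 1, 2 and 4) received the solvent DMSO and then saline. The LPS group (n = 3, mice 1, 6 and 7) received LPS at 35 mg/kg. The dual-treatment group (n = 2, mice 2 and 5) received YW3-56, which inhibits several PADs, at 10 mg/kg in DMSO, 0.5 h before the same dose of LPS. The methods state no DMSO injection for the LPS group, and no group received YW3-56 without LPS, so in dual treatment against LPS the inhibitor and its solvent cannot be told apart. As far as the methods state, LPS against control also differs in DMSO, so there LPS and the solvent cannot be told apart. Library totals ranged from 19061949 to 20908608 counts. Levels are given as CPM, read counts relative to the library total after scaling by the TMM factors of edgeR. In whole tissue, fewer cells of a type and less RNA per cell cannot be told apart. The 3 comparisons share mice, so their values are set side by side and are not independent of each other.

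Markers fixed for lung epithelium were abundant in all 8 libraries, with summed levels from 40907 to 93591 CPM and Scgb1a1 as the most abundant gene. Of these 8 markers, 2 were higher (Scgb1a1 and Foxj1) and 3 lower (Sftpc, Sftpb and Lamp3) in LPS against control at an adjusted p under 0.05, beside 32.6% and 33.9% of all genes. They became 1 higher and 6 lower with library totals as the scaling (23.4% and 42.2% of all genes), 2 higher and 1 lower without LPS mouse 6, LPS mouse 7 or control mouse 4, and 1 higher and 0 lower without both LPS mice 6 and 7. Scgb1a1, a product of club cells, averaged 33531 CPM in the controls, 58094 CPM in the LPS mice and 23860 CPM in the dual-treatment mice. Sftpc, a surfactant protein gene of type II cells, averaged 22753, 11970 and 13195 CPM in the same order, and Sftpb 5587, 2979 and 3845 CPM. Dual-treatment mice 2 and 5 differed, at 8518 and 17872 CPM for Sftpc and 2979 and 4712 CPM for Sftpb. Sftpa1, another marker of that list, averaged 4479, 3562 and 4903 CPM in the same order of groups. Dual treatment had 1 epithelial marker lower against control (Ager), beside 7.02% of all genes. That count was 0 to 2 when each mouse was left out in turn, with 0 without any 1 control mouse, LPS mouse 6 or dual-treatment mouse 2, and 3 with no filter or only the 2 groups compared. Against LPS, 3 were lower (Ager, Scgb1a1 and Foxj1), beside 27.4% of all genes, or 2 higher and 2 lower with library totals, beside 42.5% and 17.4%. Their part in the results below was not tested. The 8 skeletal muscle markers summed to 484 CPM in LPS mouse 6 and 1253 CPM in LPS mouse 7, against 16.8 CPM in LPS mouse 1 and 4.99 to 19.0 CPM in the control and dual-treatment mice. Acta1, the most abundant of them in those 2 mice, reached 209.5 CPM in LPS mouse 6 and 600 CPM in LPS mouse 7, was at 0.53 CPM in LPS mouse 1, and was not counted in control mouse 1. The 7 squamous epithelial markers found, of which Krt13 and Krt4 were the most abundant in LPS mice 6 and 7, summed to 680.0 CPM in LPS mouse 6 and 1937 CPM in LPS mouse 7, and to between 1.25 and 25.3 CPM in the other 6 mice. LPS mice 6 and 7 stand apart from LPS mouse 1 in these markers. Leaving out both leaves 1 LPS mouse, which the fit assumes to vary like the other groups. Under that assumption 5 of the 10 genes were called in LPS against control, 4 higher and 1 lower, beside 27.1% of all genes higher and 28.4% lower. Leaving out LPS mouse 1, 6 or 7 alone also gave 5, beside 63.4%, 62.7% and 65.1% of all genes in either direction.

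In LPS against control, 4 of the 10 genes rose (Ulk1, Becn1, Map1lc3b and Sqstm1) and 1 fell (Tfeb) at an adjusted p under 0.05 in edgeR's quasi-likelihood test. Over all genes tested, 32.6% rose and 33.9% fell in that comparison, so calls were common in general. The share of all genes whose groups do not overlap is not given, so gaps between groups are described below for single genes only. Scaled by library totals alone, 4 members rose and 5 fell, beside 23.4% and 42.2% of all genes. By a fold change over 2 with an unadjusted p under 0.05 in the same edgeR fit, 3 members passed, all higher, beside 40.1% of all genes in either direction. Dual treatment against control had no member higher and 1 lower (Gabarapl1), beside 9.13% of all genes higher and 7.02% lower, and none met the fold-change criterion, beside 10.5% of all genes. At an unadjusted p under 0.05, 2 members were higher (Becn1 and Atg7) and 2 lower (Map1lc3a and Gabarapl1) in that comparison, beside 15.7% and 14.7% of all genes. DESeq2 called 0 higher and 2 lower at an adjusted p under 0.05, beside 10.1% higher and 10.1% lower among all genes to which it gave an adjusted p. Set against LPS, dual treatment had 2 members higher (Atg7 and Tfeb) and 6 lower (Ulk1, Becn1, Map1lc3a, Map1lc3b, Gabarapl1 and Sqstm1), beside 31.7% of all genes higher and 27.4% lower. With library totals 4 members were higher and 3 lower, beside 42.5% and 17.4% of all genes. The calls of Becn1, Map1lc3a and Gabarapl1 were lost in that fit, and Atg5 and Lamp1 were called higher. Fewer members were called without dual-treatment mouse 2 or without dual-treatment mouse 5, and the share of all genes called was also lower. Each of these fits leaves 1 mouse in that group. In dual treatment against LPS the fold-change criterion took 1 member higher and 3 lower, beside 35.3% of all genes. The median log2 fold change of the 10 genes was 0.04 in LPS against control, -0.01 in dual treatment against control and -0.39 in dual treatment against LPS, where the medians of all genes were -0.01, 0.00 and 0.06.

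**Figure D1:**
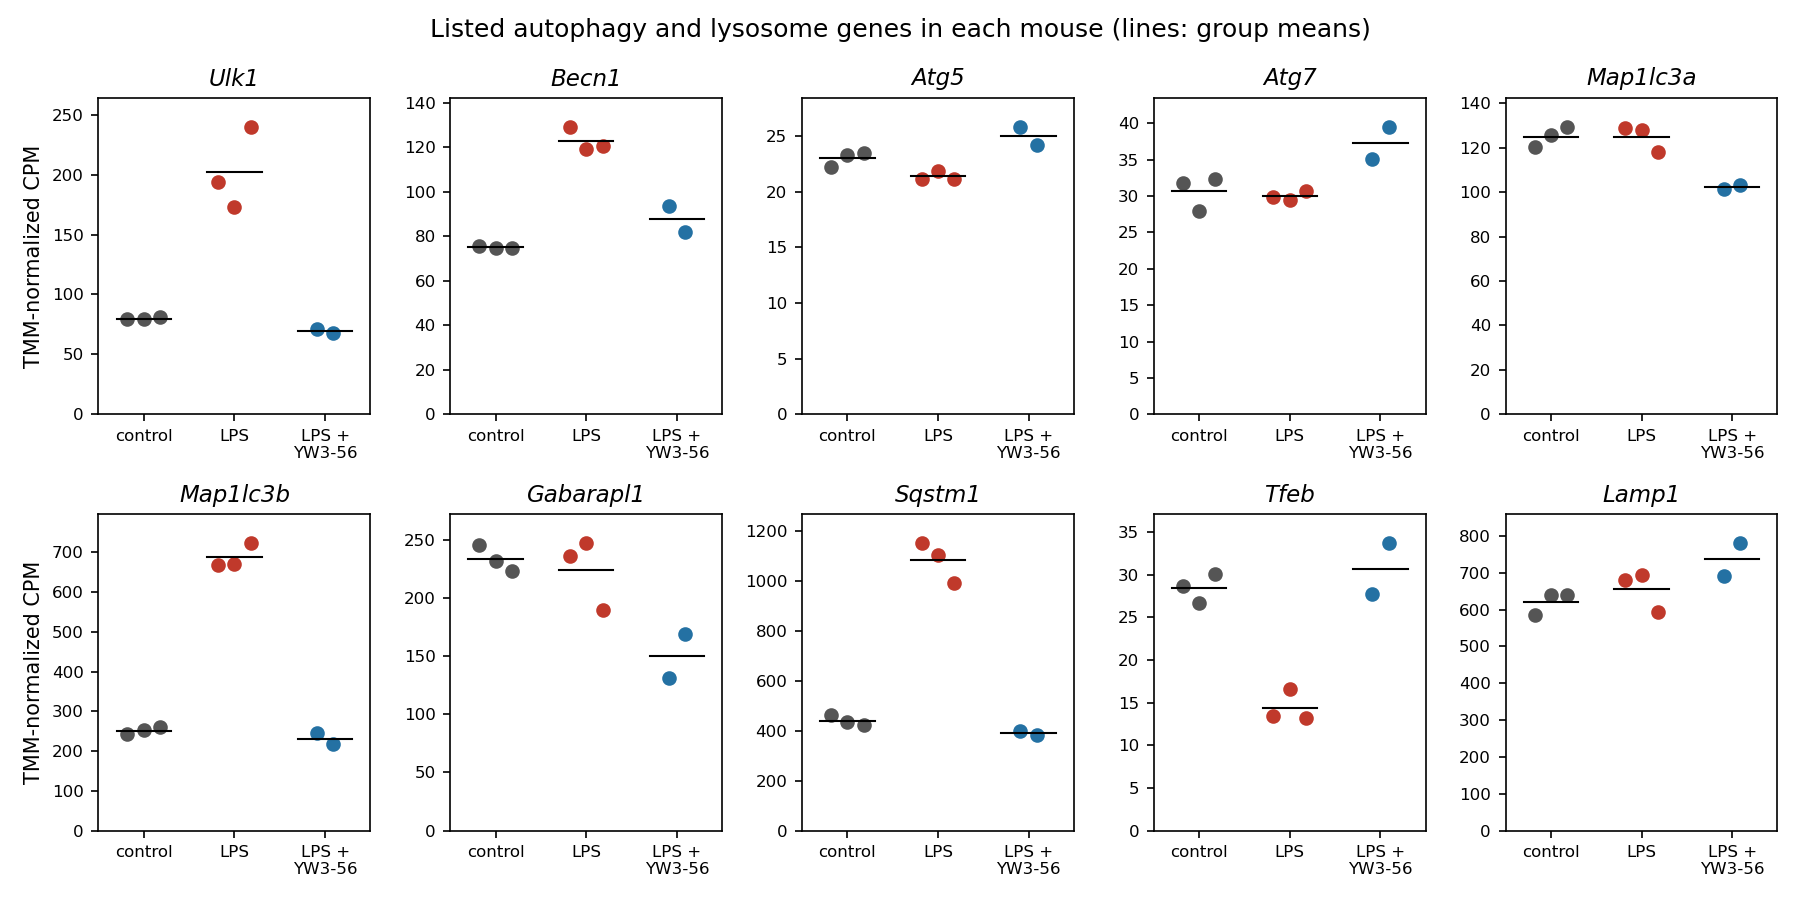
TMM-normalized CPM of each of the 10 genes (y axes start at 0) in every control, LPS and dual-treatment mouse (points), with group means as lines. Ulk1, Becn1, Map1lc3b and Sqstm1 are higher in all 3 LPS mice than in any other mouse. Tfeb is lower in all 3, and so is Atg5, by a small gap that did not pass the test. The share of all genes with such gaps is not given, and 66.5% of all genes passed the test in LPS against control.

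Ulk1 (ENSMUSG00000029512, chr5:110931496-110957995, minus strand, GRCm39) encodes the kinase that starts autophagosome formation. It was at 79.2, 79.2 and 81.0 CPM in control mice 1, 2 and 4, at 194, 173 and 240.0 CPM in LPS mice 1, 6 and 7, and at 71.2 and 67.6 CPM in dual-treatment mice 2 and 5. All LPS mice lay above all other mice, the LPS mice also spread the most, and the dual-treatment mice lay just below the controls. Ulk1 rose 2.54-fold in LPS against control (log2 fold change 1.34, SE 0.12, adjusted p = 1.16e-05). It fell in dual treatment against LPS, with a log2 fold change of -1.54 (SE 0.14, adjusted p = 2.5e-05). Dual treatment against control gave -0.20 (SE 0.14, adjusted p = 0.356), which did not pass the test.

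Becn1 (ENSMUSG00000035086, chr11:101176769-101193122, minus strand, GRCm39) encodes Beclin 1, the scaffold of the lipid kinase complex that nucleates the membrane. Its levels were 75.7, 74.8 and 74.6 CPM in the controls, 129, 119 and 120.4 CPM in the LPS mice, and 93.6 and 81.7 CPM in the dual-treatment mice. The 3 groups did not overlap, and the dual-treatment mice lay between the other groups. The rise in LPS mice was 1.64-fold (log2 fold change 0.71, SE 0.09, adjusted p = 7.38e-05), short of the fold-change criterion. Dual treatment against LPS gave a fall, with a log2 fold change of -0.49 (SE 0.10, adjusted p = 0.00218), a call that was lost when libraries were scaled by their totals alone (-0.16, adjusted p = 0.195). Against control the dual-treatment difference of 0.22 (SE 0.10, adjusted p = 0.152) did not pass. Exons of Cntd1 on the opposite strand cover 43.8% of the exon length of Becn1, and whether the counting used strand is not given in the sources used here. Cntd1 itself was counted at 0.395 to 1.66 CPM over the 8 mice.

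Atg5 and Atg7 act in conjugation: ATG7 is the activating enzyme of both conjugation systems, and ATG5 is part of the complex that places ATG8 proteins on the membrane. Atg5 (ENSMUSG00000038160, chr10:44142076-44240308, plus strand, GRCm39) was at 22.2, 23.3 and 23.5 CPM in the controls, at 21.1, 21.9 and 21.1 CPM in the LPS mice, and at 25.8 and 24.2 CPM in the dual-treatment mice. The groups were separated by small gaps, LPS lowest and dual treatment highest, but no difference passed the test: the log2 fold change was -0.11 (adjusted p = 0.345) in LPS against control, 0.12 (adjusted p = 0.486) in dual treatment against control and 0.23 (adjusted p = 0.0899) in dual treatment against LPS. With library totals as the scaling, the first was -0.39 (adjusted p = 0.0111) and the last 0.55 (adjusted p = 0.00348), both past the threshold.

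Atg7 (ENSMUSG00000030314, chr6:114620044-114837576, plus strand, GRCm39) was at 31.7, 28.0 and 32.4 CPM in the controls, at 29.9, 29.4 and 30.7 CPM in the LPS mice, and at 35.1 and 39.5 CPM in the dual-treatment mice. Controls and LPS mice overlapped, and both dual-treatment mice lay above all others. Atg7 rose in dual treatment against LPS by a log2 fold change of 0.32 (SE 0.11, adjusted p = 0.0334). This call was lost under 10 of 14 alternative fits, DESeq2 (0.27, adjusted p = 0.115) and the fit without dual-treatment mouse 5 (0.20) among them. LPS against control gave -0.03 (adjusted p = 0.781), which became -0.32 (adjusted p = 0.0285) with library totals as the scaling, and dual treatment against control gave 0.28 (adjusted p = 0.117).

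Map1lc3a, Map1lc3b and Gabarapl1 encode ATG8 proteins, the small ubiquitin-like proteins that are joined to a membrane lipid and bind cargo receptors. Map1lc3b (ENSMUSG00000031812, chr8:122317100-122325499, plus strand, GRCm39) was at 243, 253 and 259.6 CPM in the controls, at 669, 670.4 and 724 CPM in the LPS mice, and at 246 and 217 CPM in the dual-treatment mice. Every LPS mouse was far above the other 5, and the control and dual-treatment ranges overlapped. Map1lc3b rose 2.73-fold in LPS against control (log2 fold change 1.45, SE 0.10, adjusted p = 2.81e-06), the largest fitted change among the 10 genes in that comparison. It fell in dual treatment against LPS, with a log2 fold change of -1.57 (SE 0.12, adjusted p = 9.61e-06), and dual treatment against control gave -0.12 (SE 0.11, adjusted p = 0.507).

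Map1lc3a (ENSMUSG00000027602, chr2:155118217-155119998, plus strand, GRCm39) was at 120.1, 126 and 129 CPM in the controls, at 129, 128 and 118 CPM in the LPS mice, and at 101 and 103 CPM in the dual-treatment mice. Controls and LPS mice overlapped, and both dual-treatment mice were lower than all of them. The log2 fold change in LPS against control was -0.00 (95% interval -0.19 to 0.19, adjusted p = 0.991), against -0.29 (adjusted p = 0.0121) with library totals as the scaling. Map1lc3a fell in dual treatment against LPS (-0.29, SE 0.09, adjusted p = 0.0247), but the sign turned with library totals (0.04, adjusted p = 0.743), and the call was lost in 4 other alternatives. These were no filter (-0.26, adjusted p = 0.122), only the 2 groups compared (-0.31, adjusted p = 0.0573), and the fits without dual-treatment mouse 2 (-0.30, adjusted p = 0.0645) or mouse 5 (-0.33, adjusted p = 0.0544). Against control the difference of -0.29 had an adjusted p of 0.066, and DESeq2 gave -0.31 with an adjusted p of 0.0245.

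Gabarapl1 (ENSMUSG00000030161, chr6:129509725-129520544, plus strand, GRCm39) was at 246, 232 and 223 CPM in the controls, at 236, 247 and 190.0 CPM in the LPS mice, and at 131 and 169 CPM in the dual-treatment mice. Controls and LPS mice overlapped, and both dual-treatment mice were below all others. Gabarapl1 was the member that fell in dual treatment against control (log2 fold change -0.64, SE 0.15, adjusted p = 0.0202). That call was lost without control mouse 1 (-0.60, adjusted p = 0.0669), control mouse 2 (-0.65, adjusted p = 0.0624) or dual-treatment mouse 2 (-0.50, adjusted p = 0.129). It also fell in dual treatment against LPS (-0.58, SE 0.15, adjusted p = 0.00862), a call lost without dual-treatment mouse 2 (-0.44, adjusted p = 0.0555) and with library totals as the scaling (-0.25, adjusted p = 0.139). LPS against control gave -0.06 (adjusted p = 0.717), or -0.35 (adjusted p = 0.0287) with library totals. Exons of the noncoding gene 1700101I11Rik on the opposite strand cover 31% of its exon length, and that gene was at 0.0453 to 0.462 CPM.

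The ATG8 family holds 2 other tested genes. Gabarap was at 213, 207 and 225 CPM in the controls, 242, 247.5 and 190.2 CPM in the LPS mice, and 231.5 and 251 CPM in the dual-treatment mice, with overlap between controls and LPS mice and no difference past the test. Gabarapl2 was at 65.9, 68.7 and 66.3 CPM in the controls, 84.2, 77.4 and 66.4 CPM in the LPS mice, and 54.5 and 62.2 CPM in the dual-treatment mice. The dual-treatment mice were the lowest, and Gabarapl2 fell in dual treatment against LPS (-0.38, SE 0.12, adjusted p = 0.0198), a call lost with library totals (-0.05). Of the 5 family members, 1 rose in LPS against control, beside 32.6% of all genes. That count was 2 without LPS mouse 7, beside 31.5%, and 1 higher and 2 lower with library totals, beside 23.4% and 42.2%. In dual treatment against LPS 4 fell, beside 27.4% of all genes, a count that dropped to 1 without dual-treatment mouse 2, beside 23.0%, and became 1 higher and 1 lower with library totals, beside 42.5% and 17.4%.

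Sqstm1 (ENSMUSG00000015837, chr11:50089572-50107684, minus strand, GRCm39) encodes p62, a cargo receptor that binds ubiquitinated proteins and ATG8 proteins and is itself degraded by autophagy. Its levels were 464, 434 and 424 CPM in the controls, 1152, 1103 and 992 CPM in the LPS mice, and 399 and 385 CPM in the dual-treatment mice. All LPS mice were above all others, and both dual-treatment mice lay below the lowest control. Sqstm1 rose 2.46-fold in LPS against control (log2 fold change 1.30, SE 0.11, adjusted p = 6.79e-06) and fell in dual treatment against LPS (-1.47, SE 0.12, adjusted p = 1.66e-05). Dual treatment against control gave -0.17 (SE 0.12, adjusted p = 0.372). Exons of Mrnip on the opposite strand cover 17.2% of the exon length of Sqstm1, and Mrnip was at 0.831 to 1.90 CPM.

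Tfeb (ENSMUSG00000023990, chr17:48047837-48103348, plus strand, GRCm39) encodes a transcription factor that activates lysosomal and autophagy genes when it moves to the nucleus, a step set by phosphorylation that transcript levels do not show. It was at 28.7, 26.7 and 30.1 CPM in the controls, at 13.4, 16.6 and 13.2 CPM in the LPS mice, and at 27.7 and 33.7 CPM in the dual-treatment mice. All LPS mice were below all others, and the control and dual-treatment ranges overlapped. Tfeb fell in LPS against control, with a log2 fold change of -0.98 (SE 0.13, adjusted p = 0.00013), and rose 2.13-fold in dual treatment against LPS (log2 fold change 1.09, SE 0.14, adjusted p = 0.00018). Dual treatment against control gave 0.11 (SE 0.14, adjusted p = 0.656), which turned to -0.07 without dual-treatment mouse 5.

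Lamp1 (ENSMUSG00000031447, chr8:13209121-13227360, plus strand, GRCm39) encodes an abundant glycoprotein of the lysosomal membrane. It was at 586, 640.5 and 639 CPM in the controls, at 682, 695 and 594 CPM in the LPS mice, and at 692 and 781 CPM in the dual-treatment mice. Controls and LPS mice overlapped, LPS and dual-treatment mice overlapped, and both dual-treatment mice lay above the controls. No difference passed the test: the log2 fold change was 0.08 (adjusted p = 0.55) in LPS against control, 0.24 (adjusted p = 0.221) in dual treatment against control and 0.17 (adjusted p = 0.277) in dual treatment against LPS. With library totals as the scaling the first turned to -0.21 (adjusted p = 0.0884), and the last reached 0.49 (adjusted p = 0.00351). Grtp1, whose exons on the opposite strand cover 49.2% of the exon length of Lamp1, was at 25.4 to 27.5 CPM in the controls, 4.46 to 4.62 CPM in the LPS mice, and 9.70 and 21.0 CPM in the dual-treatment mice.

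**Figure D2:**
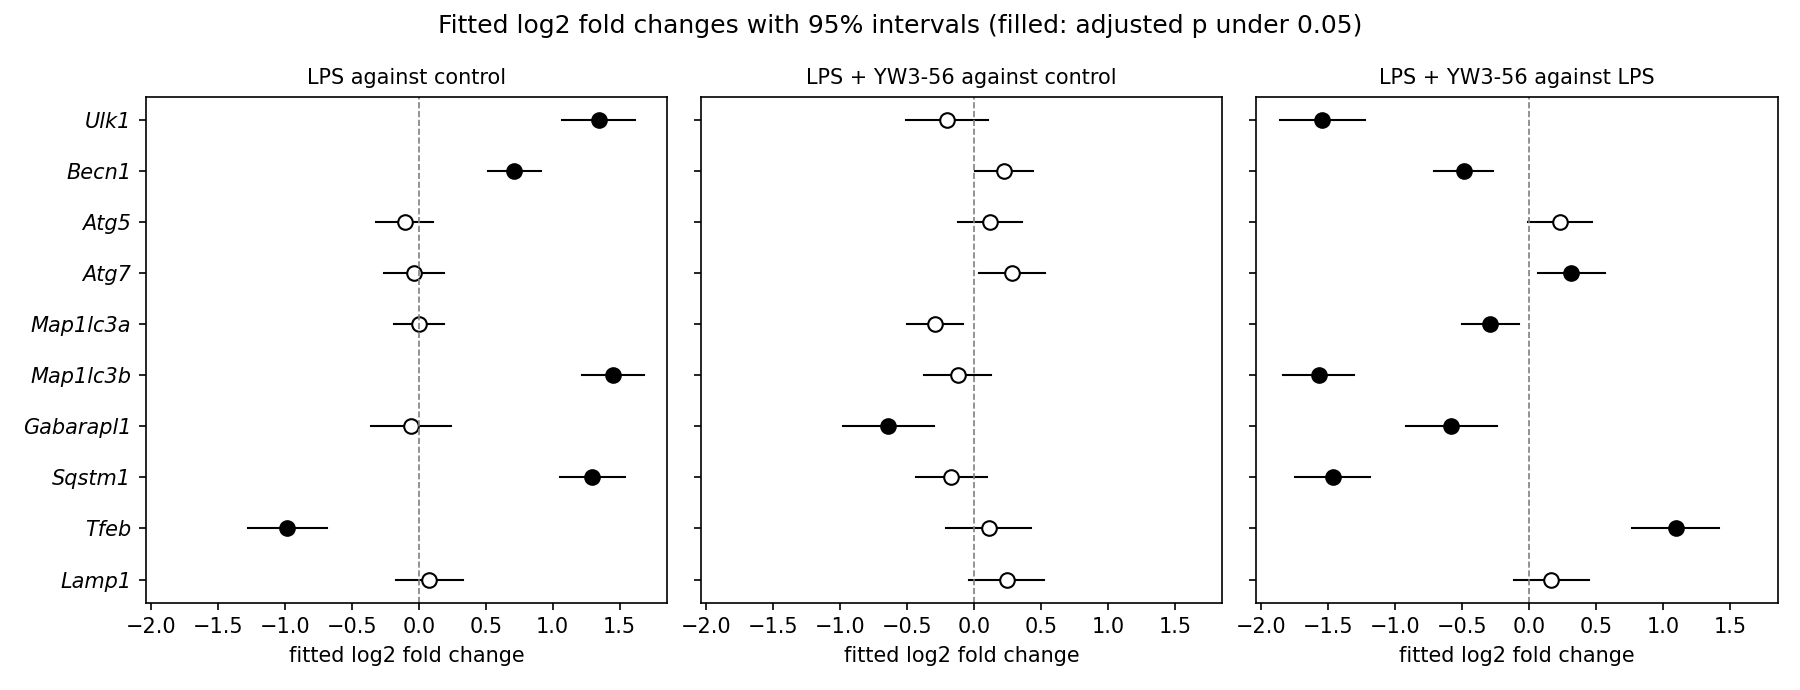
Fitted log2 fold change of each of the 10 genes (x axes) with its 95% interval (lines) in the 3 comparisons, filled where the adjusted p is under 0.05. In LPS against control Map1lc3b (1.45), Ulk1 (1.34), Sqstm1 (1.30) and Becn1 (0.71) lie to the right and Tfeb (-0.98) to the left.

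Between genes, levels were compared as CPM per kilobase of merged exons. These are the exons of all annotated transcripts of a gene, and which of them these lungs use was not measured. On that scale the control means were 119 for Lamp1, 94.9 for Map1lc3a, 63.2 for Gabarapl1, 53.7 for Sqstm1 and 33.0 for Map1lc3b. The regulators and enzymes were lower, at 10.7 for Ulk1, 10.2 for Becn1, 5.58 for Atg5, 4.14 for Tfeb and 3.69 for Atg7. In the LPS mice Sqstm1 had the highest mean per kilobase (132, SD 9.99), next to Lamp1 (126, SD 10.5), a gap smaller than either SD. Map1lc3b, at 90.3 (SD 4.10) in the LPS mice, was near Map1lc3a at 94.9 (SD 4.53), though the gap was slightly larger than either SD. The controls had Map1lc3b well below Map1lc3a on that scale. This order rests on the merged exon lengths, 7617 bases for Map1lc3b and 1317 for Map1lc3a. Before the division by length Map1lc3b was the higher, at 252 against 125 CPM in the controls and 688 against 125 CPM in the LPS mice. In the dual-treatment mice the means per kilobase were 141 for Lamp1, 77.6 for Map1lc3a, 47.7 for Sqstm1, 40.6 for Gabarapl1 and 30.3 for Map1lc3b.

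The wider lists hold 166 other tested genes of autophagy and the lysosome. In LPS against control 61 of them rose (36.7%) and 54 fell (32.5%), beside 32.6% and 33.9% of all genes, with a median log2 fold change of -0.01, as over all genes. With library totals as the scaling the split was 35 higher and 82 lower, beside 23.4% and 42.2% of all genes, so no direction is given for these lists as a whole. Against control, 24 rose in the dual-treatment mice (14.5%) and 11 fell (6.63%), beside 9.13% and 7.02% of all genes (median 0.08, all genes 0.00), a total of 35 that dropped to 21, 16 and 20 without control mouse 1, 2 or 4 and to 16 without dual-treatment mouse 2. The share of all genes called there dropped as well, from 16.1% to 9.70%, 8.43%, 9.28% and 6.24% in the same order. Against LPS, 67 rose (40.4%) and 47 fell (28.3%) in those mice, beside 31.7% and 27.4% of all genes (median 0.07, all genes 0.06), or 90 and 29 with library totals, beside 42.5% and 17.4% of all genes. Genes named from the lists are those with the highest or lowest fitted change in their list.

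**Figure D3:**
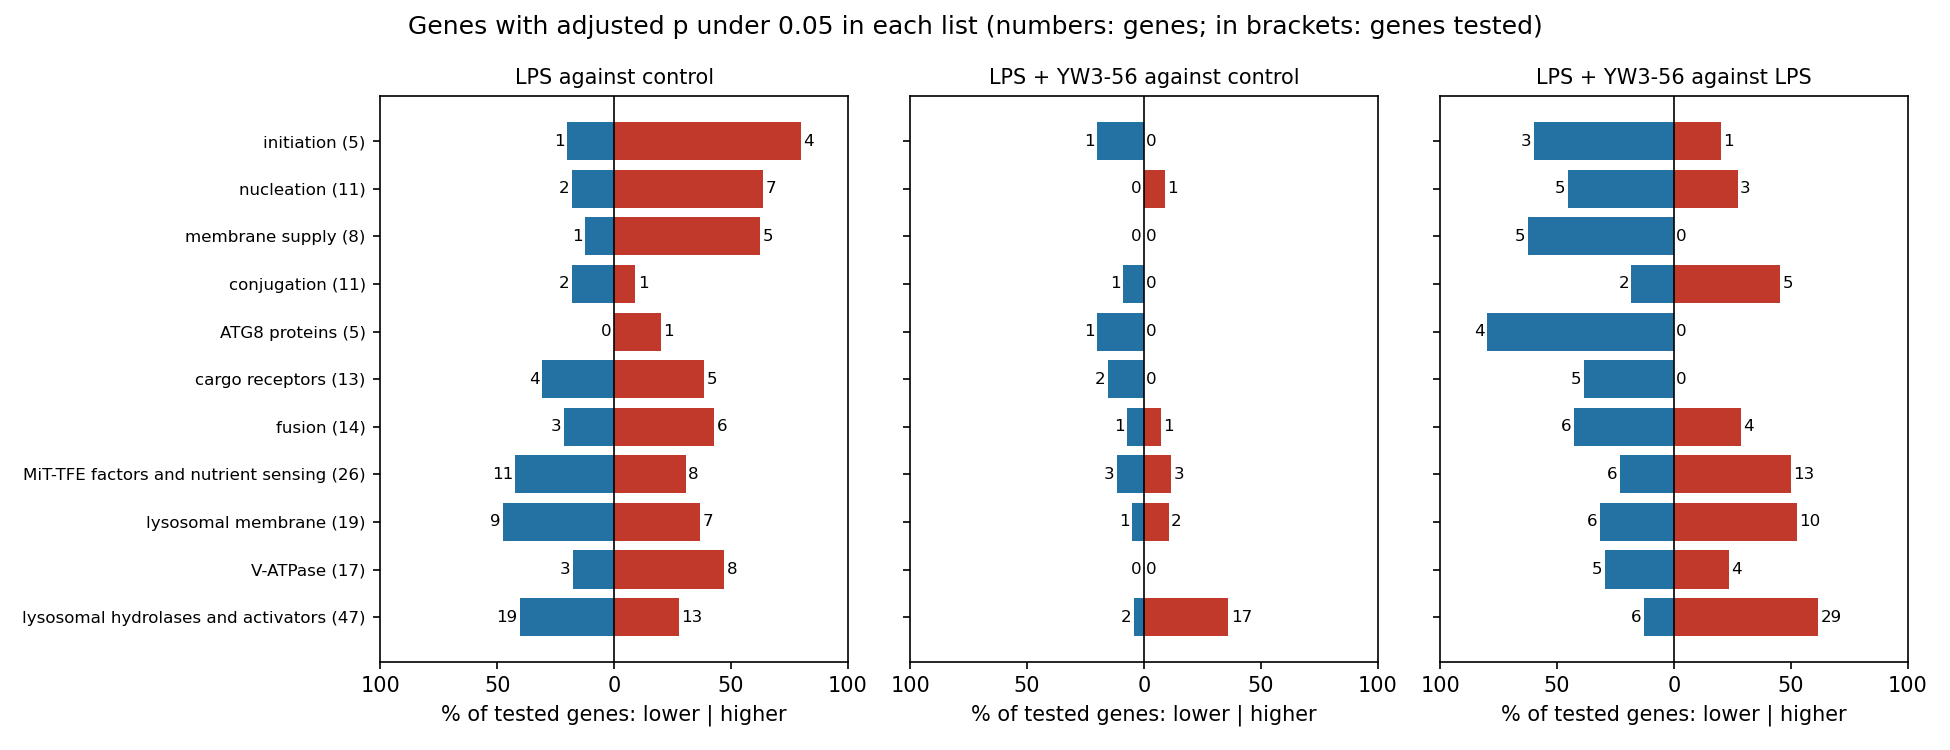
Share of tested genes in each of 11 lists (the 10 genes included) that were higher (right) or lower (left) at an adjusted p under 0.05 in the 3 comparisons, with the number of genes at each bar. Lysosomal hydrolases have 17 higher and 2 lower in dual treatment against control, beside 9.13% and 7.02% of all genes. They have 29 higher and 6 lower in dual treatment against LPS, beside 31.7% and 27.4% of all genes.

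Beside Ulk1, all 4 other genes of the initiation list passed in LPS against control, 3 higher and 1 lower, beside 32.6% and 33.9% of all genes, and with library totals 2 of the 5 genes were higher and 1 lower, beside 23.4% and 42.2% of all genes. Ulk2, the paralogue of Ulk1, fell there (log2 fold change -1.48, SE 0.10, adjusted p = 2.58e-06) and rose in dual treatment against LPS (0.87, SE 0.11, adjusted p = 0.00015), the reverse of Ulk1 in both. Against control, Ulk2 also fell in the dual-treatment mice (-0.61, SE 0.11, adjusted p = 0.00681). In the nucleation list around Becn1, Nrbf2, a subunit of the Beclin 1 complex, rose in LPS against control (1.30, adjusted p = 7.4e-06). Rubcn, which encodes Rubicon, a negative regulator of autophagosome maturation, was at 66.8, 69.4 and 66.8 CPM in the controls, 8.54, 6.64 and 6.36 CPM in the LPS mice, and 50.2 and 64.7 CPM in the dual-treatment mice. The LPS mice lay far below the rest, and the fall in LPS against control was 9.43-fold (-3.24, SE 0.15, adjusted p = 4.7e-07).

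In the conjugation list around Atg5 and Atg7, Atg4c, a protease that processes ATG8 proteins, was at 11.3, 10.2 and 9.05 CPM in the controls, 0.593, 0.981 and 0.725 CPM in the LPS mice, and 9.07 and 12.5 CPM in the dual-treatment mice. The LPS mice were close to 0 and apart from all others, and the log2 fold change in LPS against control was -3.72 (SE 0.25, adjusted p = 2.41e-06). Atg16l1, whose protein joins ATG5 in the conjugation complex, rose in LPS against control (0.81, SE 0.10, adjusted p = 5.85e-05). Among cargo receptors beside Sqstm1, Retreg1, a receptor for endoplasmic reticulum, was at 80.8, 75.1 and 64.0 CPM in the controls, 269.7, 222 and 253 CPM in the LPS mice, and 76.7 and 59.8 CPM in the dual-treatment mice. Like Sqstm1, it was highest in all 3 LPS mice, and it rose 3.39-fold (1.76, SE 0.14, adjusted p = 4.75e-06). Calcoco1, the lowest of that list in LPS against control, fell (-0.67, SE 0.09, adjusted p = 0.000157). The 13 cargo receptor genes, Sqstm1 included, had 5 higher and 4 lower there, beside 32.6% and 33.9% of all genes. With library totals the counts were 5 and 6, beside 23.4% and 42.2%.

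Of the factors listed with Tfeb, its relative Tfec was at 7.43, 5.77 and 6.29 CPM in the controls, 2.31, 2.14 and 1.06 CPM in the LPS mice, and 18.0 and 9.43 CPM in the dual-treatment mice. The LPS mice were the lowest and the dual-treatment mice the highest, and Tfec rose in dual treatment against LPS (2.90, SE 0.36, adjusted p = 0.000126). Foxo1, a transcription factor that also activates autophagy genes, rose in LPS against control (1.12, SE 0.09, adjusted p = 6.44e-06). Mlst8, the lowest of that list there, fell (-2.05, SE 0.28, adjusted p = 0.000155). The 26 genes of the list, Tfeb included, had 8 higher and 11 lower, beside 32.6% and 33.9% of all genes. With library totals the counts were 3 and 15, beside 23.4% and 42.2%. Of the lysosomal membrane genes listed with Lamp1, Scarb2, which carries glucocerebrosidase to lysosomes, was at 333, 307 and 271 CPM in the controls, 1254, 943 and 939.9 CPM in the LPS mice, and 268 and 255 CPM in the dual-treatment mice. All LPS mice were above all others, and Scarb2 rose 3.44-fold (1.78, SE 0.15, adjusted p = 6.28e-06), where Lamp1 did not pass the test. Tmem175, the lowest of that list in LPS against control, fell (-1.58, SE 0.20, adjusted p = 0.000102). The 19 tested lysosomal membrane genes, Lamp1 included, had 7 higher and 9 lower there, beside 32.6% and 33.9% of all genes. With library totals the counts were 6 and 11, beside 23.4% and 42.2%.

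The 47 lysosomal hydrolases and activators had 13 genes higher and 19 lower in LPS against control (median -0.17), beside 32.6% and 33.9% of all genes, or 7 higher and 29 lower (median -0.45, all genes -0.29) with library totals, beside 23.4% and 42.2% of all genes. Of these genes, 17 were higher and 2 lower in dual treatment against control (median 0.31, all genes 0.00), beside 9.13% and 7.02% of all genes, with 10 to 19 higher when each mouse was left out in turn, the fewest without control mouse 2, where 5.28% of all genes were higher. Against LPS, 29 were higher and 6 lower in the dual-treatment mice (median 0.57, all genes 0.06), beside 31.7% and 27.4% of all genes, or 35 and 2 (median 0.90, all genes 0.38) with library totals, beside 42.5% and 17.4% of all genes. Acp5, tartrate-resistant acid phosphatase, was at 13.5, 10.7 and 14.0 CPM in the controls, 27.0, 32.8 and 25.3 CPM in the LPS mice, and 86.2 and 68.6 CPM in the dual-treatment mice. Each group lay above the last, without overlap, and dual treatment against control gave a log2 fold change of 2.60 (SE 0.17, adjusted p = 3.54e-05). Ctsb, the protease cathepsin B, was at 448, 409.9 and 435.5 CPM in the controls, 1143, 1085 and 1021 CPM in the LPS mice, and 755 and 836 CPM in the dual-treatment mice.

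Macrophages hold many of these hydrolases. The 11 macrophage and monocyte markers, none at 0 in any library, summed to 969, 689 and 925 CPM in the controls, 1052, 1143 and 622 CPM in the LPS mice, and 1728 and 2356 CPM in the dual-treatment mice. Of them, 2 were higher and 3 lower in LPS against control (32.6% and 33.9% of all genes). In dual treatment 9 were higher against control (9.13% of all genes) and 8 against LPS (31.7% of all genes), with none lower in either. With library totals the counts in LPS against control were 1 higher and 4 lower (23.4% and 42.2% of all genes). Dual treatment then had 9 higher against control (9.78% of all genes) and 10 against LPS (42.5% of all genes). The most abundant, Chil3, was at 594, 405.5 and 557 CPM in the controls, 653, 741 and 340.1 CPM in the LPS mice, and 656 and 1243 CPM in the dual-treatment mice, where the LPS range overlapped both others, the dual-treatment mice lay above the controls, and no difference passed the test. The 8 neutrophil markers, led by S100a9, summed to 227, 126 and 131.5 CPM in the controls, 2367, 3103 and 1958 CPM in the LPS mice, and 1879 and 2445 CPM in the dual-treatment mice. Of the 8, all were higher in LPS against control (32.6% of all genes) and 7 in dual treatment against control (9.13% of all genes). Dual treatment against LPS had 4 higher (31.7% of all genes) and 1 lower (27.4% of all genes), or 1 and 1 without dual-treatment mouse 5, beside 23.5% and 20.7%. The marker that fell there was Ly6g, at 0.831, 0.141 and 0.367 CPM in the controls, 10.1, 26.7 and 11.5 CPM in the LPS mice, and 0.907 and 3.86 CPM in the dual-treatment mice. The part of these cells in the results above was not tested.

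Other markers gave summed levels as follows. The 4 endothelial markers summed to 2084 to 2428 CPM in the controls, 1473 to 1866 CPM in the LPS mice, and 2442 and 2361 CPM in the dual-treatment mice. Cdh5 had the highest mean over the 8 mice, but Pecam1 was above it in control mice 1 and 2 and in both dual-treatment mice. Pecam1 was at 617, 679 and 672 CPM in the controls, 254, 217 and 213 CPM in the LPS mice, and 1072 and 911.5 CPM in the dual-treatment mice. Tek averaged 348.0, 35.9 and 221.5 CPM in the same order of groups, Cdh5 661.4, 745.0 and 549.5 CPM, and Cldn5 616.6, 607.3 and 638.8 CPM. Of the 4, Pecam1 (-1.52, adjusted p = 5.3e-06) and Tek (-3.28, adjusted p = 3.2e-06) fell in LPS against control, beside 33.9% of all genes, and Cdh5 (0.17, adjusted p = 0.382) did not pass. Dual treatment against control had 1 higher and 0 lower, beside 9.13% and 7.02% of all genes. Without control mouse 1 or 2 it had 0 higher, beside 5.90% and 5.28%. Against LPS, 2 were higher and 0 lower in the dual-treatment mice, beside 31.7% and 27.4%. The 6 lymphocyte markers, with Cd79a the highest on average over the 8 mice, summed to 30.9 to 33.4 CPM, 12.1 to 20.4 CPM, and 52.2 and 26.7 CPM in the same order of groups. The 4 erythroid markers, led by Hbb-bs, summed to 1626 to 3656 CPM in the controls, 1390 to 2998 CPM in the LPS mice, and 405.5 and 363 CPM in the dual-treatment mice. They were lowest in the dual-treatment mice, and their part in the results was not tested.

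Promoter sequences were at hand for 8 of the 10 genes, all but Map1lc3a and Becn1, from RefSeq (GRCm38.p6), from 250 bases before to 50 bases after each start that the table lists. The start listed for Atg7 lies 27969 bases inside the gene as RefSeq annotates it, so its window is at an internal start, and Tfeb has 3 starts, the last 48707 bases inside. They were searched on both strands for CACGTG, for TCACGTGA, the core of the element bound by TFEB, which contains CACGTG, and for TGACNNNGC, the antioxidant response element. CACGTG was found in Atg5, Atg7 and Lamp1 (3 of 8 genes, against 8.09% of 27025 genes and 32 of 136 genes of the wider lists). TCACGTGA was found in none of the 8, against 1.12% of all genes and 13 of 136 genes (9.56%) of the wider lists. TGACNNNGC was found in Map1lc3b (1 of 8, against 14% of all genes and 27 of 136 genes, 19.9%, of the wider lists). The promoters of the 3 genes with the largest rise in LPS mice are printed with that of Lamp1, which holds 4 copies of CACGTG, with matches in capitals. Map1lc3b lies at chr8:121590188-121590487 (plus strand), Sqstm1 at chr11:50210771-50211070 (minus strand), Ulk1 at chr5:110810032-110810331 (minus strand) and Lamp1 at chr8:13158911-13159210 (plus strand).
Map1lc3b: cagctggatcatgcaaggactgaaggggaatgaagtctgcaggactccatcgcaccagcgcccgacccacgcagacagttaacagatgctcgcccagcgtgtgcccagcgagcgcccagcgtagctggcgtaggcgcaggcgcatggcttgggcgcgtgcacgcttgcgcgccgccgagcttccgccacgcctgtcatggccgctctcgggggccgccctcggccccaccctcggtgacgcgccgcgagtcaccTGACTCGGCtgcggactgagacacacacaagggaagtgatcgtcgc
Sqstm1: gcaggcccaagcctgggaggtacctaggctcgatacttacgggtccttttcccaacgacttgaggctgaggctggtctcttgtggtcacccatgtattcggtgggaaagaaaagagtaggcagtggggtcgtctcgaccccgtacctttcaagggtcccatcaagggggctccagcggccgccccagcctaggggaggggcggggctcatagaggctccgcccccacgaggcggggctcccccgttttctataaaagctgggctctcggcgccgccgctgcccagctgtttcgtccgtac
Ulk1: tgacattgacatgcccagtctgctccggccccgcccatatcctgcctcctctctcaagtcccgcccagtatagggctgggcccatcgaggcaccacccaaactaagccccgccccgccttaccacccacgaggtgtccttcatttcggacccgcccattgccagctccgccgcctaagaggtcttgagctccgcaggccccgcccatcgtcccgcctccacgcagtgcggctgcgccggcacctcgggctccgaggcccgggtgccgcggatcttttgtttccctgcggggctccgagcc
Lamp1: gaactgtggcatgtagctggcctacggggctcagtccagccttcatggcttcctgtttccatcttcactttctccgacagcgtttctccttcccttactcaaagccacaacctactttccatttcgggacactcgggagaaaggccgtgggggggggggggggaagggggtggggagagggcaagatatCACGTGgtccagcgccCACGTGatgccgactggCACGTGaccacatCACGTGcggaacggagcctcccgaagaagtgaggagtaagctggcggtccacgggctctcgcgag
A match is a description, not a site or a cause. The sequences of Sqstm1 and Ulk1 hold none of the 3 motifs in this window.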

How the data were processed

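RNA from lung tissue of 8 mice was sequenced by the authors. The deposited raw counts per gene were made by the authors with FastQC 0.11.9, Trim Galore, HISAT2 2.2.1 and featureCounts 2.0.1 on GRCm39; the strand setting is not given in the sources used here. Of 55416 identifiers, 54749 matched GENCODE M39, which gave symbols and exon lengths, and 667 did not (0.0533% of counts). Groups came from the treatment labels. Counts were fitted with edgeR 4.0.16 in R 4.3.3 (filterByExpr, TMM, quasi-likelihood test, 1 group factor over all 8 libraries, Benjamini-Hochberg over 18560 genes); SEs are log2 fold changes over the root of F. P-values measure the spread between mice. The test was tried on simulated data with 200 of 18560 genes changed, where unchanged genes passed at the nominal rate. Among the calls there the share of false ones could exceed the nominal level. The excess was largest for small changes in dual treatment against control and smaller in LPS against control. That share depends on how many genes change, and far more were called in the data, so its size does not carry over. Calls near the threshold are treated as less certain, above all in the dual-treatment group.

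The members and lists were chosen with earlier results of these data known. All 10 genes are described; from each of 11 wider lists and in each comparison, the genes with the highest and lowest fitted change among those with adjusted p under 0.05 and a mean of at least 1 CPM could be named, with the ATG8 family in full, and only part of them are. Genes overlapping a member on the other strand were taken from the annotation. Of 167 wider-list symbols, Cln7 was not found, nor was the marker Lor. Alternatives were DESeq2 1.42.0, scaling by library totals, no filter, at least 10 counts in every library, only the 2 groups compared, each mouse left out in turn, LPS mice 6 and 7 left out together, and a fold change over 2 with an unadjusted p under 0.05 in the edgeR fit (the study's methods give this fold change and a p-value under 0.05 with DESeq2, and do not say whether it was adjusted).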

Additional observations from a re-analysis of the deposited data

How the results depend on the processing

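The rises of Ulk1, Becn1, Map1lc3b and Sqstm1 and the fall of Tfeb in LPS against control kept their direction and their call in every alternative fit. So did the changes of Ulk1, Map1lc3b, Sqstm1 and Tfeb in dual treatment against LPS. The fold-change criterion, applied to the main fit, was not met by Becn1 and Tfeb in LPS against control. Leaving out each mouse in turn gave 5 to 5 members called in LPS against control, 0 to 2 in dual treatment against control and 5 to 8 in dual treatment against LPS, and 99 to 115, 16 to 48 and 92 to 113 genes of the wider lists, beside 59.7% to 65.1%, 6.24% to 19.7% and 44.2% to 58.2% of all genes. Where 1 dual-treatment mouse, or both LPS mice 6 and 7, were left out, the lone mouse of that group was assumed to vary like the other groups.

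With library totals as the scaling, the median of all genes moved from -0.01 to -0.29 in LPS against control and from 0.06 to 0.38 in dual treatment against LPS. In LPS against control it gave 9 members called, 4 higher and 5 lower (44.4% higher, against 80.0%). The count of members higher was 4 in both fits, and that of members lower went from 1 to 5. In the wider lists 29.9% of the calls were higher, against 53.0%. Of all genes, 23.4% were higher and 42.2% lower with library totals, against 32.6% and 33.9%. Of the members called in dual treatment against LPS, 57.1% were higher with library totals, against 25.0%, or 14.3% with DESeq2. Of the wider-list calls 75.6% were higher, against 58.8%. Of all genes there, 42.5% were higher and 17.4% lower with library totals, against 31.7% and 27.4%, or 24.2% and 23.6% with DESeq2. Dual treatment against control had 83.3% of the wider-list calls higher with library totals, against 68.6%, or 58.5% with DESeq2. Of all genes there, 9.78% were higher and 5.55% lower with library totals, against 9.13% and 7.02%, or 10.1% and 10.1% with DESeq2. DESeq2 called 2 members in dual treatment against control. The fold-change criterion took 3, 0 and 4 members and 41, 8 and 40 of the 166 wider-list genes, beside 40.1%, 10.5% and 35.3% of all genes. These values are in the order LPS against control, dual treatment against control and dual treatment against LPS.

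Signs turned in LPS against control for Map1lc3a (0.025 with DESeq2, 0.049 without LPS mice 6 and 7, -0.032 to 0.048 over the mice left out in turn), Gabarapl1 (0.020 without LPS mice 6 and 7, -0.126 to 0.058 over the mice left out), Atg7 (-0.100 to 0.006 over the mice left out) and Lamp1 (-0.210 with library totals). They also turned for Map1lc3a in dual treatment against LPS (0.038 with library totals) and Tfeb in dual treatment against control (-0.069 to 0.214 over the mice left out). None of these values passed the test, and the cause was not tested. No paired analysis was made, because the methods describe a random division of mice into groups and give no pairing.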

Other observations

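The V-ATPase, the proton pump that acidifies lysosomes, had 8 of 17 tested subunit genes higher and 3 lower in LPS against control, beside 32.6% and 33.9% of all genes, or 3 higher and 6 lower with library totals as the scaling, beside 23.4% and 42.2%. Leaving out each mouse in turn gave 5 to 9 higher there, beside 28.9% to 32.0% of all genes. In dual treatment against control edgeR over all 8 libraries and DESeq2 called 0 of them. Of all genes, edgeR called 9.13% higher and 7.02% lower there, and DESeq2 10.1% and 10.1%. At an unadjusted p under 0.05 in edgeR 4 were higher, beside 15.7% of all genes. There edgeR called 2 higher with only the 2 groups compared or without LPS mouse 7, beside 11.9% and 10.7% of all genes. Dual treatment against LPS had 4 higher and 5 lower, beside 31.7% and 27.4% of all genes, or 9 higher and 3 lower with library totals, beside 42.5% and 17.4%. Atp6v0c, a subunit of the membrane ring, rose in LPS against control (1.02, SE 0.14, adjusted p = 0.000138), and Atp6v0d2 fell (-1.26, SE 0.26, adjusted p = 0.00202). Of the 8 genes that supply membrane to the autophagosome, 5 rose and 1 fell in LPS against control, beside 32.6% and 33.9% of all genes. With library totals 4 rose and 2 fell there, beside 23.4% and 42.2%. In dual treatment against LPS 5 fell, beside 27.4% of all genes, and fewer did without dual-treatment mouse 5, which leaves 1 mouse in that group. The share of all genes that fell was also lower in that fit. Atg9b, a lipid scramblase of that list, was at 0.322 to 0.489 CPM in the controls, at 1.36, 3.87 and 12.4 CPM in LPS mice 1, 6 and 7, and at 0.861 and 0.746 CPM in the dual-treatment mice. Its level was highest in LPS mouse 7, in which the squamous and muscle markers were also highest, and their part in it was not tested.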
